A study of Mus musculus with 6 samples.

Results

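The cytosolic ribosomal protein genes encode the proteins of the ribosome that works in the cytoplasm. Probes were taken as members where the annotated symbol was that of a protein of the large subunit (Rpl), the small subunit (Rps), the stalk (Rplp) or Rpsa. Ribosomal S6 kinases and pseudogenes were left out. This gave 57 of the 16440 genes with a symbol on the array, with 60 of its 23466 probes. Of these, 59 probes for 56 genes had a value on every array and were tested, 22 for the small subunit and 37 for the large one. The probe of Rpl3l, a muscle-type paralog of Rpl3, was blank on 4 arrays and read 2.3 on heterozygous array 1 and 2.2 on wild-type array 2.

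Total RNA came from untreated neural stem cells (NSC) cultured from the brains of C57BL6 mice at P0, the day of birth, in DMEM/F12 medium with bFGF, EGF and heparin. The cells were labelled Ecrg4 homo (homozygous), Ecrg4 hetero (heterozygous) or Ecrg4 wt (wild type), with 2 arrays for each label. Ecrg4 encodes a small secreted protein. The sources used here do not give the change made to the allele, nor whether both arrays of a label stand for separate mice or separate cultures. The p-values thus cover the array-to-array spread only, and that spread may be technical.

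Each ribosome carries a single copy of nearly every ribosomal protein, and the genes are transcribed at high, matched rates in growing cells. Their mRNAs begin with a terminal oligopyrimidine tract (TOP), a run of C and U at the first base, through which mTOR signalling and Larp1 control their translation. Neural stem cells held in bFGF and EGF keep dividing and so keep making ribosomes.

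Ecrg4 itself read 1.4 and 1.3 on the homozygous arrays, 345.5 and 373.9 on the heterozygous arrays and 112.9 and 154.9 on the wild-type arrays, in the arbitrary intensity units of the table. The homozygous arrays were near 0, and the heterozygous ones lay above the wild-type ones, which is not the order of the allele number. Of 9 tested markers of neural stem and progenitor cells, 8 exceeded on all 6 arrays the background level used throughout, the 95th percentile among probes of olfactory receptor genes on the same array (50.5 to 57.6). Among markers of other cells, 3 of 6 tested oligodendrocyte, 2 of 6 astrocyte, 2 of 9 neuron and 1 of 7 fibroblast and smooth muscle markers did so. So did 0 of 6 microglia, 0 of 1 endothelial and 0 of 1 erythroid markers.

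The family was among the brightest on the array. Of the 60 member probes, 55 exceeded the olfactory receptor level on all 6 arrays. Rps20 did so on 1 array, and Rpl37, Rpl10, Rps12 and Rpl3l did so on none. By the geometric mean over the 6 arrays, 35 tested member probes were at 10000 or more, 9 lay between 1000 and 10000, 10 between 100 and 1000 and 5 below 100. Members made up 15.6% of the 225 probes at 10000 or more. The brightest member probes were those of Rpl41, Rpl26, Rpl32, Rps18 and Rpl5, and the dimmest tested ones those of Rps12, Rpl10, Rpl37, Rps20 and Rps21. Rpl32, a large subunit protein, read 32563.7 and 33522.4 in homozygous, 40719.5 and 41166.9 in heterozygous and 43199.9 and 44603.9 in wild-type cells, with no overlap. Rps21, just above background, read 88.5 and 76.3 in homozygous, 71.4 and 67.6 in heterozygous and 78.1 and 70.3 in wild-type cells, with overlap of homozygous and wild type. Probes differ in how strongly they bind, so levels were compared between arrays within a probe and not between genes.

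A window of 300 bases around the gene start was matched for 46 of the 57 genes by symbol (RefSeq, build GRCm38.p6, 250 bases before the start and 50 from it on). Unmatched were Rpl7, Rpl8, Rpl17, Rpl21, Rpl29, Rpl30, Rpl32, Rpl36, Rplp1, Rps14 and Rps20. On the gene's strand, a run of 8 or more C or T within 30 bases of the start on either side was found in 25 of 46 members (54.3%) and in 22.8% of the 27025 genes with a window. The letters CCGGAAG, on either strand, were in 20 members (43.5%) and in 9.12% of all genes. The letters AAGATGGC, on either strand, were in 5 members (10.9%) and in 2.88% of all genes. These last 2 motifs can share the letters AAG, which occurred in 0 members, and CCGGAAG read on the opposite strand can share its pyrimidines with a run. Such matches describe the sequence and are not shown to be bound.

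The 60 bases centred on the gene start are given for 4 members with low values in homozygous cells and for a pair of paralog pairs, because the pairs set a canonical gene beside its variant. Capitals mark the longest run of C and T where it reached 8 bases, and in Rps27l the first of 2 runs of equal length. The windows are Rps23 at chr13:90923092-90923151 (plus strand), Rps15 at chr10:80292401-80292460 (plus), Rpl35 at chr2:39005102-39005161 (minus) and Rpl26 at chr11:68901536-68901595 (plus). The paralogs are Rps27 at chr3:90213619-90213678 (minus), Rps27l at chr9:66946056-66946115 (plus), Rpl22 at chr4:152325696-152325755 (plus) and Rpl22l1 at chr3:28805478-28805537 (plus).
Rps23: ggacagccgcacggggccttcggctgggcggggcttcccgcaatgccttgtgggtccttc
Rps15: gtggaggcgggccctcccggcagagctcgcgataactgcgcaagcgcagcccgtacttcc
Rpl35: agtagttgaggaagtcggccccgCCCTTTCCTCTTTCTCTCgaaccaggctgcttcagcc
Rpl26: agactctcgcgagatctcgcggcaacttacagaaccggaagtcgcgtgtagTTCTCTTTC
Rps27: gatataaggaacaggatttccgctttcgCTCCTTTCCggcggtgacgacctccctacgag
Rps27l: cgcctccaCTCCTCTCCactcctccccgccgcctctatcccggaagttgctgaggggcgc
Rpl22: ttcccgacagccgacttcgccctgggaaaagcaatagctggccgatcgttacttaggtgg
Rpl22l1: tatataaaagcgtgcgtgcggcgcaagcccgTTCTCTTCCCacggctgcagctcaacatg

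The first comparison asked whether ribosomal protein transcripts differed between homozygous and wild-type cells. Most members read somewhat lower on the homozygous arrays, and no single member passed the test. The median log2 fold change, homozygous minus wild type, was -0.23 over the 59 member probes (0.851-fold) and 0.02 over all 20434 tested probes. It was below 0 for 46 of 59 members (78.0%), against 47.8% of all probes. With limma and Benjamini-Hochberg adjustment over all probes, 0 of 59 members passed an adjusted p of 0.05, where 0.920% of all probes passed, and the lowest adjusted p of a member was 0.120. At an unadjusted p under 0.05 there were 16 members (27.1%), against 19.0% of all probes. Of these 14 were lower and 2 higher, against 9.45% and 9.58% of all probes. The family's direction depended on the scaling: the median was 0.02 after quantile normalization, -0.04 after cyclic loess and 0.05 after centring on other bright probes. In bulk RNA, fewer cells of a type and less RNA per cell cannot be told apart.

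**Figure D1:**
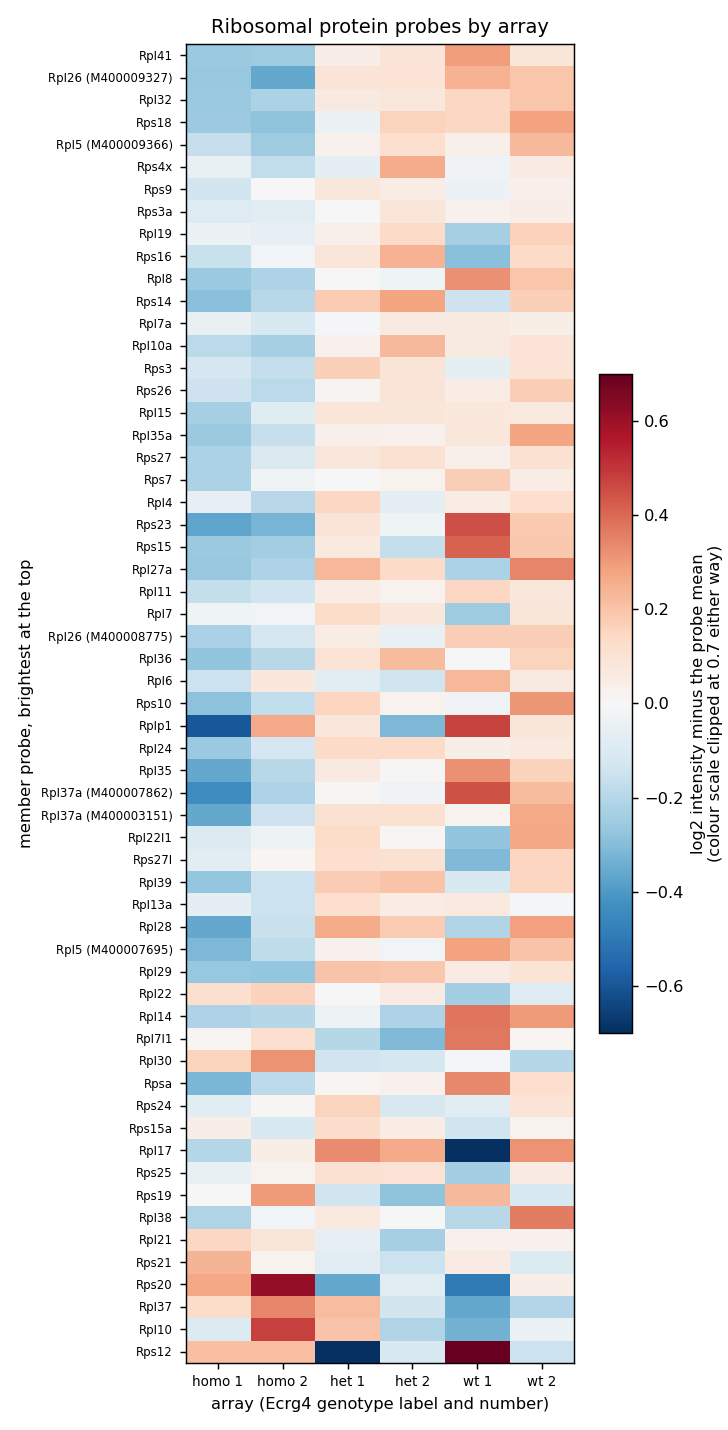
Log2 intensity of each of the 59 tested member probes on each array, relative to the probe's own mean over the 6 arrays, with homozygous arrays at the left, then heterozygous and wild-type arrays. Most probes are lower on the homozygous arrays, where the member medians are -0.19 and -0.12 as the values were deposited; quantile normalization takes the homozygous minus wild-type median to 0.02.

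Among the small subunit proteins, Rps23, a protein of the decoding centre, had the lowest log2 fold change. It read 15297.8 and 15788.2 on the homozygous arrays, 21057.1 and 19421.0 on the heterozygous arrays and 27080.3 and 22484.1 on the wild-type arrays. The 3 genotypes did not overlap, with homozygous lowest and wild type highest. The log2 fold change was -0.67 ± 0.16 (SE, n = 2 arrays each, limma adjusted p = 0.120). Rps15, a protein of the small subunit head, read 15959.9 and 16137.6 in homozygous, 19998.4 and 17011.9 in heterozygous and 25476.5 and 21796.0 in wild-type cells, again with no overlap (-0.55 ± 0.17, limma adjusted p = 0.166). Rps18, another head protein, followed at -0.48 ± 0.15. Rpsa, the small subunit protein also known as the laminin receptor, read 649.2 and 716.2 in homozygous, 820.7 and 830.0 in heterozygous and 1024.4 and 881.1 in wild-type cells, in the same order (-0.48 ± 0.16, limma adjusted p = 0.186).

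Among the large subunit proteins, probe M400007862 of Rpl37a had the lowest value. It read 10098.0 and 11754.2 in homozygous, 13700.1 and 13410.4 in heterozygous and 18588.2 and 15904.2 in wild-type cells, with no overlap (-0.66 ± 0.16, limma adjusted p = 0.125). The other Rpl37a probe, M400003151, was at -0.40 ± 0.16 (limma adjusted p = 0.266). Its homozygous arrays were also lowest, but its heterozygous and wild-type arrays overlapped. Rpl14 read 861.0 and 870.8 in homozygous, 976.7 and 861.7 in heterozygous and 1296.7 and 1228.5 in wild-type cells. Only its wild-type arrays stood apart, above the other 4 (homozygous minus wild type -0.54 ± 0.15, limma adjusted p = 0.145). Rpl26, which also binds p53 mRNA, read 32947.3 and 30855.4 in homozygous, 42178.7 and 42208.1 in heterozygous and 46747.5 and 45333.6 in wild-type cells on its brighter probe (-0.53 ± 0.14, limma adjusted p = 0.137). Rpl35, which sits at the exit of the nascent peptide tunnel, read 10668.6 and 11972.9 in homozygous, 14288.0 and 13784.3 in heterozygous and 17080.4 and 15335.0 in wild-type cells (-0.52 ± 0.15, limma adjusted p = 0.164). For both of these genes the homozygous arrays were the lowest and the wild-type arrays the highest.

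A few members read higher in homozygous cells. Rpl30, a large subunit protein, read 945.5 and 1056.7 in homozygous, 770.9 and 779.2 in heterozygous and 843.0 and 740.7 in wild-type cells, so that the homozygous arrays lay above the other 4 (0.34 ± 0.15 against wild type, limma adjusted p = 0.297). Rpl22 read 1140.6 and 1177.7 in homozygous, 1050.9 and 1095.7 in heterozygous and 894.1 and 988.1 in wild-type cells, without overlap (0.30 ± 0.14, limma adjusted p = 0.319). The highest values belonged to probes near background. Rps20 read 50.7 and 64.4 in homozygous, 32.8 and 39.7 in heterozygous and 29.8 and 43.3 in wild-type cells, and Rpl37 and Rpl10 were dimmer still. Only 1 of these 6 Rps20 values exceeded the olfactory receptor level.

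**Figure D2:**
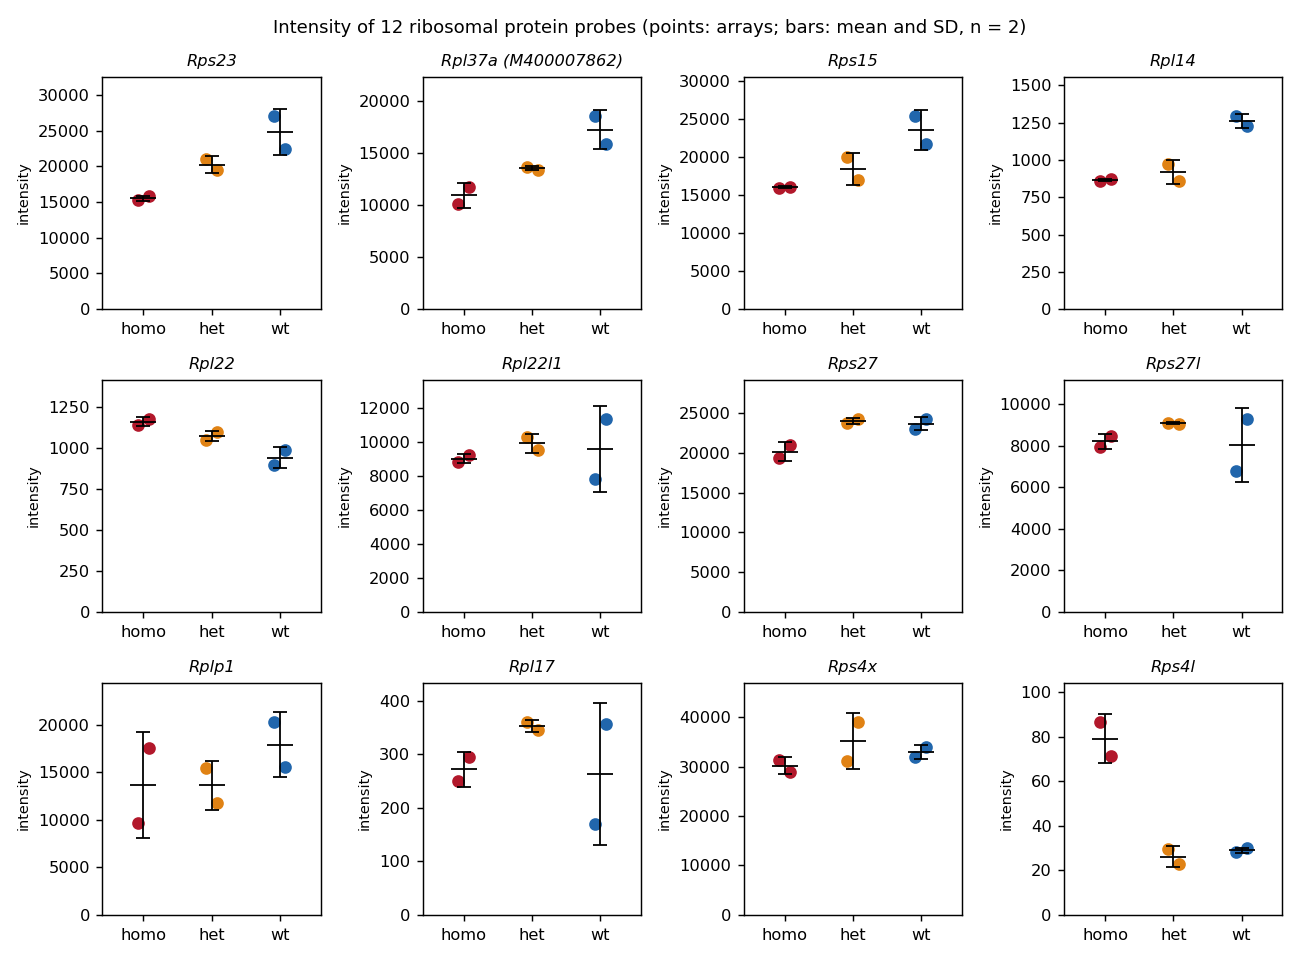
Intensity on a linear axis of selected members, paralogs and their parent genes, with homozygous arrays at the left of each panel, then heterozygous and wild-type arrays. Each array is 1 point, and bars give the mean and SD (n = 2). Rps23 reads 15297.8 and 15788.2 in homozygous cells against 27080.3 and 22484.1 in wild-type cells. Of the probes shown, only that of Rps4l, added by its updated symbol, passed the limma threshold.

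Both homozygous arrays were below both wild-type arrays for 34 of 59 members (57.6%), against 24.8% of all probes, and above them for 5 (8.47%), against 25.7%. Most members are bright, and the share moved with brightness. At 10000 or more, both homozygous arrays were below both wild-type arrays for 80.0% of 35 members and 67.7% of 189 other probes. Among the 70 of these other probes with a gene symbol, the share was 62.9%. Both homozygous arrays were below the other 4 arrays for 31 members (52.5%), against 13.2% of all probes, and above them for 4 (6.78%), against 16.2%. The 95% interval of a member's log2 fold change had a median half-width of 0.38, and it excluded 0 for the 16 members with an unadjusted p under 0.05. With an intensity-trended robust prior in limma, 11 members were called, all lower, where 2.94% of all probes were called lower; with a pseudocount of 32 there were also 11 (2.37% of all probes), and with dim probes removed 5 of 55 (5.10%). After centring on other bright probes, 2 members were called and both were higher (7.90% of all probes), the dim probes of Rpl37 and Rps20.

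Heterozygous and wild-type cells were compared next. The family's median log2 fold change, heterozygous minus wild type, was -0.03 (0.979-fold), against -0.01 over all probes, and 31 of 59 members (52.5%) were below 0, against 51.4% of all probes. The median's sign changed without wild-type array 2 (0.01) and after quantile normalization (0.03). With limma 0 members were called, where 0.749% of all probes were, and 2 members had an unadjusted p under 0.05, against 13.5% of all probes. The arrays did not overlap for 19 members that were lower (32.2%, against 24.5% of all probes) and 10 that were higher (16.9%, against 21.0%).

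Rpl14, described above, had the lowest value of a member above background, at -0.46 ± 0.15 (SE, n = 2 arrays each, limma adjusted p = 0.291). Rpl7l1, a paralog of Rpl7 that takes part in ribosome assembly, read 974.7 and 1044.3 in homozygous, 841.9 and 780.4 in heterozygous and 1245.6 and 976.6 in wild-type cells. Its heterozygous arrays were the lowest of the 6 (-0.44 ± 0.17, limma adjusted p = 0.353). The highest value was that of Rpl17, which lines the peptide tunnel exit, with 249.3 and 295.6 in homozygous, 361.2 and 345.1 in heterozygous and 169.7 and 356.7 in wild-type cells. The wild-type arrays lay far apart, with 1 below the heterozygous arrays and 1 between them (0.52 ± 0.34), and without wild-type array 1 the log2 fold change was -0.01. Rps16 read 24561.9 and 27050.3 in homozygous, 29106.1 and 32489.9 in heterozygous and 22348.0 and 30117.4 in wild-type cells, where the heterozygous and wild-type arrays overlapped as well (heterozygous minus wild type 0.25 ± 0.19). Rps12, a dim probe, read 4.1 and 4.1 in homozygous, 1.7 and 3.3 in heterozygous and 6.6 and 3.2 in wild-type cells, all far under the olfactory receptor level, so that no fold is given.

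Homozygous and heterozygous cells were compared last, and this comparison shares the homozygous arrays with the first. The median log2 fold change, homozygous minus heterozygous, was -0.20 (0.870-fold), against 0.04 over all probes. Of 59 members 48 (81.4%) were below 0, against 45.5% of all probes. With limma 0 members were called, where 2.69% of all probes were, and the lowest adjusted p was 0.155. At an unadjusted p under 0.05 there were 6 members (10.2%), against 18.2% of all probes. Of these 5 were lower and 1 higher, against 8.90% and 9.25% of all probes. The arrays did not overlap for 43 members that were lower (72.9%, against 25.9% of all probes) and for 8 that were higher (13.6%, against 28.7%). At 10000 or more, they were lower without overlap for 88.6% of 35 members and 67.2% of 189 other probes. Among the 70 of these other probes with a gene symbol, the share was 58.6%. Scaling moved this median too, to -0.02 after quantile normalization, -0.02 after cyclic loess and 0.01 after centring on other bright probes.

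Rpl29, a large subunit protein whose loss in mice reduces growth, had the lowest adjusted p. It read 1483.2 and 1476.3 in homozygous, 2047.0 and 2028.2 in heterozygous and 1855.0 and 1901.4 in wild-type cells. The arrays of each genotype lay close together, and the homozygous ones were lowest (homozygous minus heterozygous -0.46 ± 0.14, SE, n = 2 arrays each, limma adjusted p = 0.155). Rpl28 read 3443.8 and 3954.1 in homozygous, 5287.8 and 4987.6 in heterozygous and 3808.9 and 5373.7 in wild-type cells, so that the wild-type arrays spanned most of the range (homozygous minus heterozygous -0.48 ± 0.21). Rps14, whose loss in human marrow cells impairs red cell formation, read 21497.7 and 23025.2 in homozygous, 29797.0 and 31888.7 in heterozygous and 23808.7 and 29533.5 in wild-type cells (homozygous minus heterozygous -0.47 ± 0.17, limma adjusted p = 0.217). Its homozygous arrays were the lowest of the 6. Rpl39, a very short protein of the peptide tunnel, read 5723.2 and 6213.0 in homozygous, 7800.4 and 7907.2 in heterozygous and 6413.6 and 7650.0 in wild-type cells, with the homozygous arrays again lowest (homozygous minus heterozygous -0.40 ± 0.16). Rps19, the gene most often mutated in human Diamond-Blackfan anaemia, ran the other way, with 242.3 and 297.2 in homozygous, 218.9 and 198.7 in heterozygous and 282.6 and 224.2 in wild-type cells (homozygous minus heterozygous 0.36 ± 0.19). Rpl27a read 15564.5 and 16079.7 in homozygous, 21935.4 and 20493.6 in heterozygous and 16044.6 and 23730.5 in wild-type cells, with 1 wild-type array among the homozygous ones. Rpl21 read 156.3 and 149.9 in homozygous, 135.5 and 120.2 in heterozygous and 144.2 and 144.1 in wild-type cells, with the homozygous arrays highest. A moderated F test over the 3 genotypes called 0 members, where 2.26% of all probes were called. Under the alternatives, 3 members were called lower, homozygous minus heterozygous, with a pseudocount of 32 (3.14% of all probes), 2 with the trended robust prior (3.87%) and 1 with dim probes removed (6.31%), Rpl29 each time. The F test then called 7, 5 and 1 members, against 5.66%, 7.74% and 10.7% of all probes.

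By subunit and on the deposited scale, the medians of the 22 small subunit probes were -0.14 for homozygous minus wild type, 0.01 for heterozygous minus wild type and -0.17 for homozygous minus heterozygous. For the 37 large subunit probes they were -0.27, -0.04 and -0.22 in the same order. The difference between the subunits was not tested. Rplp1, a protein of the acidic stalk that recruits translation factors, was the only stalk protein measured here. It read 9699.0 and 17557.9 in homozygous, 15437.4 and 11770.0 in heterozygous and 20317.8 and 15494.8 in wild-type cells. The homozygous arrays lay further apart than any pair of genotype means. Rpl5, Rpl26 and Rpl37a had 2 probes each, and 0 of these pairs disagreed in sign by more than 0.5 on the log2 scale in any comparison.

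The values of the brightest members carried a further limit. On homozygous arrays 1 and 2 the highest intensity was 46976.4 and 47257.1, and 7 probes shared exactly that value on each. On the heterozygous arrays it was 58267.6 (1 probe) and 63228.2 (2 probes), and on the wild-type arrays 69523.0 (1 probe) and 59693.5 (2 probes). Rpl41, whose protein is among the shortest known, lay at the highest value on both homozygous arrays and on wild-type array 2. No saturation flags were available, so a ceiling is inferred from the shared values only. Its level on these arrays may be only a lower bound, and no fold is given for it.

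The members were also set against other probes of like brightness. At 10000 or more, the median log2 fold change, homozygous minus wild type, was -0.29 over 35 members and -0.26 over 189 other probes, with 97.1% and 85.2% of them below 0. Homozygous minus heterozygous, these medians were -0.25 and -0.20, and heterozygous minus wild type -0.05 and -0.02. Of the 189 other probes, 70 had a gene symbol. Their medians were -0.19, -0.19 and 0.01 in that order, with 75.7% below 0 for homozygous minus wild type. Centring on other bright probes used all 189, with or without a symbol. Between 1000 and 10000 the homozygous minus wild-type median was -0.23 over 9 members and -0.07 over 1530 other probes. Between 100 and 1000 it was 0.05 over members and 0.02 over other probes, and below 100 it was 0.38 over 5 members and 0.04 over the others. Lower homozygous values thus moved with brightness, in members and in other probes, and the part of brightness in the family's values was not tested.

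**Figure D3:**
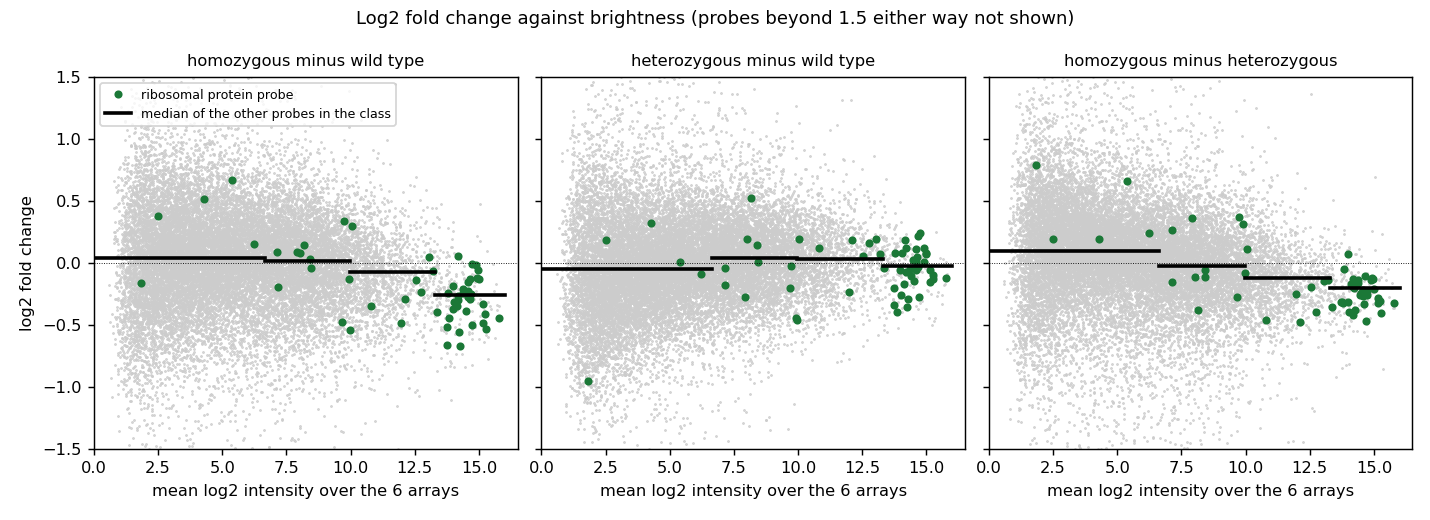
Log2 fold change against the mean log2 intensity over the 6 arrays for member probes over all tested probes, with a panel for each of the 3 comparisons; points are probes and black lines the medians of other probes by brightness class. At 10000 or more the homozygous minus wild-type median is -0.29 for members and -0.26 for other probes as deposited. It is -0.19 for the other probes with a gene symbol. Over all members quantile normalization turns the median to 0.02.

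**Figure D4:**
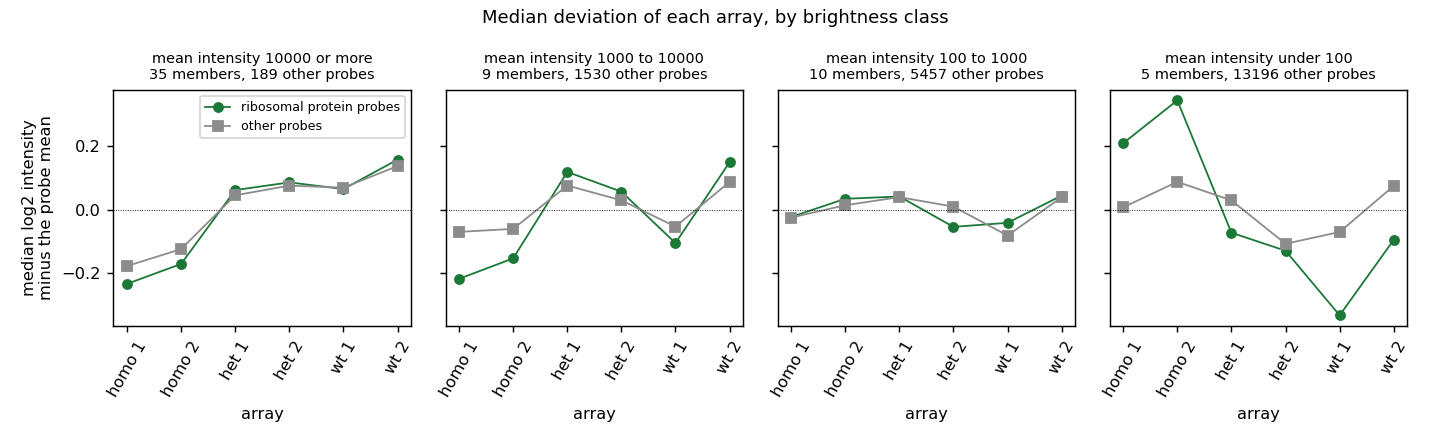
Median log2 intensity per array, relative to each probe's mean over the 6 arrays, for members and other probes, with homozygous arrays at the left, then heterozygous and wild-type arrays. Members at 10000 or more lie at -0.23 and -0.17 on the homozygous arrays, 0.06 and 0.09 on the heterozygous and 0.07 and 0.16 on the wild-type arrays, and other probes of that brightness at -0.18 and -0.12, 0.05 and 0.08, and 0.07 and 0.14, all as deposited; after quantile normalization the homozygous minus wild-type median over all members is 0.02.

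**Figure D5:**
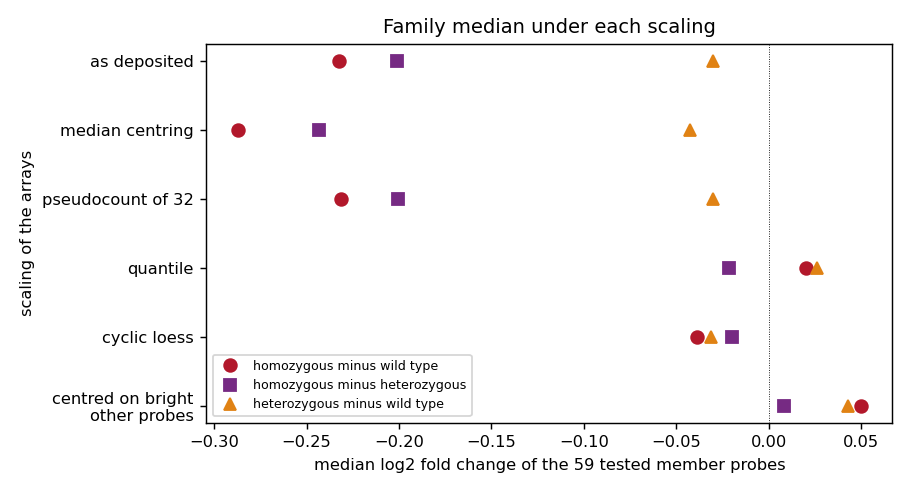
Median log2 fold change of the member probes in each comparison under each scaling of the arrays. The homozygous minus wild-type median is -0.23 as deposited, -0.29 after median centring, -0.04 after cyclic loess, 0.02 after quantile normalization and 0.05 after centring on other bright probes.

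Several ribosomal protein genes have paralogs that can take their place in the ribosome. Rpl22l1, the paralog of Rpl22 that rises when Rpl22 is lost in mice, read 8813.0 and 9205.1 in homozygous, 10292.7 and 9513.3 in heterozygous and 7801.2 and 11358.4 in wild-type cells. Its homozygous arrays lay below the heterozygous ones and inside the wild-type range, while Rpl22 was highest in homozygous cells. Rps27 read 19300.3 and 20961.1 in homozygous, 23777.8 and 24293.5 in heterozygous and 23053.9 and 24230.6 in wild-type cells. Rps27l, its p53-responsive paralog, read 7957.9 and 8468.6 in homozygous, 9115.9 and 9055.4 in heterozygous and 6765.6 and 9301.8 in wild-type cells. Rps27 was lowest on the homozygous arrays, and Rps27l overlapped between homozygous and wild-type cells; none of these probes passed the limma threshold.

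Bringing the annotated symbols up to date added 3 probes that the symbol rule had not taken, for 63 in all. These were Rpl34, Rpl39l and Rps4l, of which Rpl34 and Rpl39l did not pass the threshold. Rpl34 read 14963.0 and 17869.6 in homozygous, 19134.1 and 16069.9 in heterozygous and 22316.6 and 20395.5 in wild-type cells. Rpl39l read between 3.2 and 10.7, far under the olfactory receptor level on all 6 arrays. Rps4l, a paralog of Rps4x on chromosome 6, read 86.9 and 71.4 in homozygous, 29.5 and 23.0 in heterozygous and 28.2 and 29.9 in wild-type cells. Its homozygous arrays stood above the other 4, which were all under the olfactory receptor level. With the dim arrays set at the olfactory receptor level, homozygous cells were at least 1.43-fold higher than wild type and at least 1.51-fold higher than heterozygous. These bounds were not tested. On the deposited values, the limma adjusted p was 0.0364 against wild type and 0.0150 against heterozygous. Against wild type the call held in 7 of 17 alternatives (adjusted p 0.00258 to 0.253) and was lost without any 1 array, and against heterozygous it held in 13 of 17 (0.000839 to 0.132) and was lost without any 1 homozygous or heterozygous array. Rps4x itself read 31408.7 and 28979.5 in homozygous, 31145.1 and 39092.2 in heterozygous and 32018.0 and 33901.7 in wild-type cells.

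Genes of the ribosome and around it were taken from lists, with medians on the deposited scale. The shares of all probes called, given above, were 0.920% for homozygous minus wild type, 0.749% for heterozygous minus wild type and 2.69% for homozygous minus heterozygous, so that counts of 0 in lists of this size lie near the background. Of 7 tested ribosomal proteins that bind Mdm2, the ubiquitin ligase of p53, 0 were called, and their homozygous minus wild-type median was -0.25. Of 16 tested genes mutated in human Diamond-Blackfan anaemia, 0 were called, with medians of -0.25 for homozygous minus wild type, -0.05 for heterozygous minus wild type and -0.23 for homozygous minus heterozygous. All tested genes of the Mdm2-binding and Diamond-Blackfan lists are members of the family, so these medians repeat part of the family's own values. Of 17 other tested TOP mRNAs, such as those of translation elongation factors, 0 were called, and the medians were -0.11, 0.06 and -0.11 in the same order.

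The 58 tested ribosome biogenesis factors, which process rRNA and assemble the subunits, also had 0 calls, against the same shares of all probes, with medians of 0.10, -0.10 and 0.20 in that order. Homozygous minus heterozygous, 14 of 58 were below 0, against 45.5% of all probes. Nop56, a core protein of box C/D snoRNPs, read 2410.2 and 2676.6 in homozygous, 1699.9 and 1500.4 in heterozygous and 2391.8 and 1980.8 in wild-type cells. The heterozygous arrays were the lowest (homozygous minus heterozygous 0.67, limma adjusted p = 0.114). Fbl, the methyltransferase of the same particles, read 8087.6 and 8681.9 in homozygous, 9029.3 and 9482.4 in heterozygous and 7553.8 and 9876.5 in wild-type cells, with overlap of the homozygous and wild-type arrays.

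Of 29 tested regulators of ribosomal protein output, Ddit4l, an inhibitor of mTOR signalling, rose in each comparison. It read 193.4 and 186.6 in homozygous, 62.8 and 56.6 in heterozygous and 8.8 and 6.1 in wild-type cells. The wild-type arrays were under the olfactory receptor level, so homozygous cells were at least 3.44-fold higher and heterozygous cells at least 1.08-fold higher than wild type. These bounds were not tested. On the deposited values, the limma adjusted p was 0.00311 and 0.00500 in that order. Homozygous exceeded heterozygous cells by 1.67 ± 0.21 log2 units (limma adjusted p = 0.0175). Mxi1, which competes with Myc for Max, fell by 1.51 ± 0.24 log2 units in homozygous against heterozygous cells (limma adjusted p = 0.0344). Mtor read 328.9 and 280.6 in homozygous, 346.9 and 339.3 in heterozygous and 294.7 and 290.1 in wild-type cells, and Myc read 505.2 and 524.4, 391.5 and 348.2, and 434.6 and 422.3 in the same order. Neither passed the threshold.

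Markers of other cells also differed between the genotypes. Among all probes 0.920% were called for homozygous minus wild type, 0.749% for heterozygous minus wild type and 2.69% for homozygous minus heterozygous. These shares apply to each marker list below. The summed intensity of the 6 tested astrocyte markers was 2187.7 and 2006.9 in homozygous, 3401.9 and 3356.0 in heterozygous and 1553.0 and 2136.7 in wild-type cells. Their median log2 fold change was -0.74 homozygous minus heterozygous, with 6 of 6 below 0, and 0.84 heterozygous minus wild type, with 1 of 6 below 0. Of the 6, 3 were under the olfactory receptor level on all 6 arrays. Heterozygous minus wild type, 0 were called, where 0.749% of all probes were. Aqp4, the astrocyte water channel, was called lower in homozygous than in heterozygous cells (limma adjusted p = 0.0333), where it read 14.3 and 8.0 against 66.8 and 45.5. Of these values only the 66.8 of heterozygous array 1 exceeded the olfactory receptor level. Gfap, the defining filament of astrocytes, was under the olfactory receptor level on all 6 arrays.

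The 6 tested oligodendrocyte markers summed to 14367.0 and 12049.1 in homozygous, 12100.3 and 13750.9 in heterozygous and 10285.5 and 11019.8 in wild-type cells, with 0 called. Most of that sum was Olig1 and Olig2, transcription factors that progenitors also express. The 9 tested neuron markers summed to 5276.2 and 5208.9 in homozygous, 4052.9 and 5379.5 in heterozygous and 2047.6 and 2032.5 in wild-type cells. Gap43, a growth cone protein, made up most of it, with 4809.2 and 4796.1 in homozygous, 3782.4 and 5138.8 in heterozygous and 1758.0 and 1778.9 in wild-type cells. Gap43 and Elavl4 were called higher in homozygous than in wild-type cells, Gap43 in heterozygous than in wild-type cells and Elavl4 in homozygous than in heterozygous cells. These were 2, 1 and 1 of 9 markers, against 0.920%, 0.749% and 2.69% of all probes. The other 7 neuron markers, Dcx and Tubb3 among them, were under the olfactory receptor level on all 6 arrays, and heterozygous minus wild type 5 of 9 were below 0 (median -0.11).

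The 7 fibroblast and smooth muscle markers summed to 200.6 and 227.5 in homozygous, 402.2 and 395.0 in heterozygous and 1338.1 and 1050.1 in wild-type cells. Acta2, smooth muscle actin, made the difference, with 88.0 and 118.5 in homozygous, 277.5 and 284.6 in heterozygous and 1229.5 and 894.8 in wild-type cells, and it was called lower in each comparison. The other 6 were under the olfactory receptor level on all 6 arrays, and the list's median was -0.14 for homozygous minus wild type, -0.06 for heterozygous minus wild type and -0.09 for homozygous minus heterozygous. Among 6 microglia markers, P2ry12 was called higher in homozygous cells against both other genotypes and Cx3cr1 lower in heterozygous than in wild-type cells, both under the olfactory receptor level on all 6 arrays. The neural stem and progenitor markers summed to 68862.2 and 68504.9 in homozygous, 64804.6 and 61749.3 in heterozygous and 66223.1 and 64097.9 in wild-type cells, with 0 called. The part of these markers in the family's values was not tested.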

How the data were processed

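The authors deposited 1-colour array intensity values on a linear scale, with a median of 30 over the measured probes of each array, per the values themselves. The sources used here do not give the background correction or the rule for blank cells, and the labels name both biotin and a coupled dye. The members and lists were chosen with earlier results of these data known.

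Intensities were log2-transformed without a pseudocount. For the 20434 probes with values on all 6 arrays, limma 3.58.1 in R 4.3.3 was fitted with 1 coefficient per genotype (3 residual degrees of freedom, a prior worth 3.27). Tests were two-sided, adjusted by Benjamini-Hochberg over all probes, with a threshold of 0.05. The number of arrays limits the precision. Bounds of a fold set dim arrays at the 95th percentile of the 663 olfactory receptor probes. Symbols came from the platform annotation and were updated by RefSeq synonyms (GRCm38.p6). Named members came from the 6 lowest and 6 highest log2 fold changes of each comparison, the brightest and dimmest members, paralogs with their parent genes and called genes of the lists. Other genes, such as Rpsa, Nop56, Fbl, Mtor and Myc, were chosen after their values were seen. The code was tested on simulated data. Alternatives covered scaling, pseudocount, filters, priors, weights, blocks and each array left out.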

Additional observations from a re-analysis of the deposited data

How the results depend on the processing

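The family's median log2 fold change moved with scaling. Homozygous minus wild type it was -0.29 after median centring, 0.020 after quantile normalization, -0.039 after cyclic loess and, in an alternative chosen after seeing the data, 0.050 after centring on bright probes that are no members, which took the median of all probes to 0.30; with 1 array left out it lay between -0.29 and -0.18. Heterozygous minus wild type it was 0.026 after quantile normalization and 0.043 after bright centring, and between -0.071 and 0.013 with 1 array left out. Homozygous minus heterozygous it was -0.24, -0.022, -0.020 and 0.0083 in the order given first. Members called, homozygous minus wild type, numbered 11 with a pseudocount of 32, 5 with dim probes removed and 11 with an intensity-trended robust prior. Of all probes tested, 2.37%, 5.10% and 2.94% were called lower in these settings. After bright centring 2 were called (both higher, Rpl37 and Rps20, against 7.90% of all probes), and 1 with updated symbols (Rps4l). Homozygous minus heterozygous, the counts were 3, 1, 2, 0 and 1. In the first 3 settings 3.14%, 6.31% and 3.87% of all probes tested were called lower. The F test gave 7, 1 and 5 members for the first 3 settings, against 5.66%, 10.7% and 7.74% of all probes tested. The cause was not tested. Without wild-type array 1, the heterozygous minus wild-type value changed sign for 11 of 59 member probes, Rpl27a, Rpl28 and Rpl22l1 among them. Of the 12 lowest and highest in that comparison, these were Rps27l (-0.034, and up to 0.43 without another array) and Rpl17 (-0.015, and up to 1.06). In the other combinations of comparison and array left out, at most 7 members changed sign. Arrays with the same replicate number did not deviate together (correlations -0.08, 0.01 and 0.02); with the replicate number as a block, 0 members were called in each comparison and the medians were -0.23, -0.03 and -0.20.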
